A study of Mus musculus with 8 samples.

Results

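Single-targeted H3.3 K122A lines were compared with wildtype cells over all 16255 genes of the authors' deposited table for that pair of groups. No gene was selected, and 16896 genes appear in any of the 4 deposited comparisons. The study used mouse embryonic stem cells of the male line ES-E14TG2a (E14) and TT-seq, in which new RNA is labelled with 4-thiouridine (here 500 nM for 5 min), drawn out with biotin and sequenced. Wildtype cells, with all 4 alleles of H3f3a and H3f3b intact, were sampled as 3 biological replicates. There were 2 single-targeted lines, one H3f3a A/A H3f3b WT/WT and the other H3f3a WT/WT H3f3b A/A, so each carried 2 mutant alleles of 1 of the H3.3 genes. Each line gave 1 library, so the gene that was edited and the history of the line cannot be told apart, and the spread within the group is a spread between different genotypes. The series has 8 libraries in all. The other 3 are dual-targeted lines with 3 mutant alleles, a line of H3f3a WT/A H3f3b A/A and 2 clones of H3f3a A/A H3f3b WT/A, and they enter below only where they show how the single-targeted lines stand. All cells were edited or parental E14 cells grown with LIF; the labels also describe a medium with 2 inhibitors added and do not say which was used.

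H3.3 is the H3 variant that the HIRA complex and the DAXX-ATRX complex place into chromatin outside DNA replication, at active genes, enhancers, telomeres and silenced repeats. H3f3a and H3f3b encode the same protein, so mutant and wildtype H3.3 were both made in the single-targeted lines. The lysine that was replaced by alanine lies on the lateral surface of the histone octamer, where it touches DNA near the nucleosome dyad, and it can be acetylated.

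The deposited values are a mean normalized count over the 5 libraries, a log2 fold change (positive is higher in the single-targeted lines) with its standard error (SE, given after ±), a p and an adjusted p. A gene was called when its adjusted p was under 0.05. Values per library were not analysed here, so depth per library is unknown. Means per group were rebuilt from the mean counts of 3 deposited tables and carry no error. Since the deposited fold changes are shrunken towards 0, a gene with an uncertain difference can have a fold change near 0 while its rebuilt means lie far apart. Mean counts summed to 1.08e+07, of which 31.1% fell on Gm26917 and 2.26% on Gm42418, whose log2 fold changes in the authors' deposited table were -0.06 and -0.06.

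H3f3a and H3f3b themselves did not differ beyond their error. H3f3a (chromosome 1, 180800832 to 180813943, GRCm38) stood at -0.12 ± 0.18 in the authors' deposited table (adjusted p = 0.674), with rebuilt means of 926 normalized counts in wildtype and 750.1 in single-targeted lines. H3f3b (chromosome 11, 116021912 to 116027962) stood at -0.01 ± 0.17 in the authors' deposited table (adjusted p = 0.908), with rebuilt means of 2553 and 1913. A change of one amino acid need not alter transcript level, so these values do not check the labels.

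In single-targeted lines, most mitochondrially encoded RNAs, several p53 targets and a pair of genes that LIF induces were higher, while a set of replication-dependent histone genes, several genes of glycolysis and of sterol and fatty acid synthesis, and the transcription factors Zic2, Zic5 and Otx2 were lower. In the authors' deposited table, 445 of 15030 genes with an adjusted p were called, which is 2.96%. Of these, 224 were higher (1.49%) and 221 lower (1.47%), and 130 of the higher and 71 of the lower had a log2 fold change of at least 1 in size. The median log2 fold change of all genes was 0.00. The median mean count was 153 among the higher genes and 371 among the lower. Chromosome 8 held 86 of the lower genes and 3 of the higher, and with its genes left out 121 were lower. These counts are the background against which the groups of genes below are read.

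The largest rises, among called nuclear genes at or above a mean count of 50 and an assigned name, were genes of adhesion, signalling and the germline. Mdga1 (chromosome 17, 29827949 to 29970087), a membrane-anchored protein that binds neuroligins at synapses, had rebuilt means of 40.3 normalized counts in wildtype and 199 in single-targeted lines, and the authors' deposited table gave 2.12 ± 0.40 (adjusted p = 5.72e-06). Plk2 (chromosome 13, 110395046 to 110400844), a polo-like kinase and p53 target, went from 117 to 408, with 1.69 ± 0.27 in the authors' deposited table (adjusted p = 3.74e-08), the smallest p among the named rises. Ccn1, a secreted matrix protein, rose by 1.87 ± 0.41 in the authors' deposited table, from a low wildtype mean of 31.9. Hormad2, a protein of the meiotic chromosome axis, rose by 1.99 ± 0.63 and Tex19.1, which restrains transposable elements in germ cells, by 1.86 ± 0.86 in the authors' deposited table. The error of Tex19.1 was the widest of the 12 (adjusted p = 0.0417). Its call depends on the set of genes adjusted over: without chromosome 8 its adjusted p was 0.0514 over every other deposited p and 0.0478 over those genes that have a deposited adjusted p. The plasma membrane calcium pump Atp2b4 rose by 1.70 ± 0.45 and Inka2, an inhibitor of the kinase PAK4, by 1.63 ± 0.40 in the authors' deposited table. The long noncoding RNAs Mir22hg, the host of miR-22, and Miat rose by 1.75 ± 0.35 and 1.65 ± 0.34 in the authors' deposited table. Bcl3, also among the 12, is given with the LIF genes. Mir22hg overlaps Tlcd2 on the same strand, so reads of the pair may be shared.

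The largest falls held metabolic enzymes, transcription factors and genes best known from differentiated cells. Acss1 (chromosome 2, 150618105 to 150668500), which makes acetyl-CoA from acetate in mitochondria, had rebuilt means of 539 normalized counts in wildtype and 110.2 in single-targeted lines, and the authors' deposited table gave -2.22 ± 0.25 with an adjusted p listed as 0. Lrrc31 (chromosome 3, 30679058 to 30699843), a leucine-rich repeat protein, went from 1294 to 367, with -1.74 ± 0.24 in the authors' deposited table (adjusted p = 4.81e-11). Zic2 (chromosome 14, 122475435 to 122479852), a zinc finger transcription factor of the formative state and the forebrain, went from 373 to 86.7, with -1.99 ± 0.33 in the authors' deposited table (adjusted p = 1.02e-07). Myh13, a myosin heavy chain of eye muscles, had the most negative fold change of the 12 in the authors' deposited table, -2.29 ± 0.41, on rebuilt means of 115 and 20.9. Bcl11a, a transcription factor that silences fetal globin, fell by 1.55 ± 0.30 and Ap3b2, a neuronal subunit of the AP-3 coat, fell by 1.66 ± 0.38 on the log2 scale in the authors' deposited table. The dynein heavy chain Dnah7a fell by 1.65 ± 0.52, Patl2, an RNA-binding protein of oocytes, by 1.48 ± 0.36, and Cachd1 by 1.42 ± 0.30 on the log2 scale in the authors' deposited table. Kctd19, a gene of meiosis (-1.71 ± 0.46), and Lpl, the lipoprotein lipase (-1.45 ± 0.29), both lie on chromosome 8, where most genes were lower, and these are the values of the authors' deposited table. Hist3h2a, a histone H2A gene, stood at -1.45 ± 0.29 in the authors' deposited table. Patl2 overlaps B2m, and Kctd19 overlaps Plekhg4, each on the opposite strand, and whether strand was used to count reads is not stated in the labels.

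Mitochondrially encoded RNAs had the highest median fold change of the 45 gene lists. The mitochondrial genome is transcribed from both strands into long precursors, which are cut at tRNAs into the mRNAs of respiratory chain subunits, the rRNAs and the tRNAs themselves. Of 22 such genes in the authors' deposited table, 21 had an adjusted p, 13 rose and 0 fell, with a median log2 fold change of 1.67 against 0.00 for all genes. Of the 8 tRNAs, 7 rose, from 0.94 for mt-Tq to 3.12 for mt-Ti, and mt-Te was not called at 0.99 ± 0.50 (adjusted p = 0.057) in the authors' deposited table. By role, 6 of 11 protein-coding genes with an adjusted p rose and 0 of 2 rRNAs. The rRNAs mt-Rnr1 and mt-Rnr2 stood at -0.01 ± 0.18 and 0.01 ± 0.18 in the authors' deposited table. Their mean counts were 141 and 266, and their rebuilt log2 ratios were -0.48 and 0.42. Shrunken fold changes near 0 thus do not show that the rRNAs were unchanged. By strand, 11 of 17 genes with an adjusted p on the plus strand and 2 of 4 on the minus strand rose.

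Among the mRNAs, the level and the error differed widely. mt-Co1, a subunit of cytochrome c oxidase, had rebuilt means of 12083 normalized counts in wildtype and 43479.7 in single-targeted lines, and the authors' deposited table gave 1.75 ± 0.29 (adjusted p = 1.21e-07). mt-Nd1, a subunit of complex I, went from 6937 to 41032, with 2.25 ± 0.62 in the authors' deposited table (adjusted p = 0.00175). mt-Cytb, the core of complex III, went from 7632 to 29694, with 1.59 ± 0.61 in the authors' deposited table (adjusted p = 0.0198). Other abundant complex I mRNAs were not called. mt-Nd2 stood at 1.95 ± 1.09 in the authors' deposited table (adjusted p = 0.0672), mt-Nd4 at 1.35 ± 1.08 (adjusted p = 0.103), mt-Nd5 at 1.43 ± 0.90 (adjusted p = 0.0848) and mt-Nd6 at 1.17 ± 0.73 (adjusted p = 0.0872). Their standard errors of 0.73 to 1.09 were above the medians of 0.147 to 0.155 of genes with mean counts of 200 to 2000 on 18 nuclear chromosomes. mt-Atp6 shows the shrinkage, since its rebuilt means were 30.6 and 169.9 while the authors' deposited table gave 0.10 ± 0.22 (adjusted p = 0.128).

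Some unprocessed pseudogenes that are nuclear copies of mitochondrial genes were higher as well. Of 51 unprocessed pseudogenes in the authors' deposited table, 8 were called, all higher, and all 8 aligned to a mitochondrial gene. Those without a call were not aligned, except Gm28439, so the share of nuclear copies that rose is not known. Of the 9 aligned, 6 lie at chromosome 1, 24611535 to 24616197, and 3 at chromosome 2, 22587291 to 22590533. Gm28439, a copy of mt-Nd4 on chromosome 1, was not called at 1.54 ± 1.64 (adjusted p = 0.11) in the authors' deposited table. Aligned with blastn, their transcripts were 95.9 to 100% identical to a mitochondrial gene. Gm10222, identical to mt-Nd4l over its length, went from rebuilt means of 23.8 to 135, and the authors' deposited table gave 2.36 ± 0.39 (adjusted p = 1.55e-07), against 2.81 ± 0.61 for mt-Nd4l (adjusted p = 8.32e-05). Gm13340, 97.6% identical to mt-Co1, stood at 2.36 ± 0.37 in the authors' deposited table (adjusted p = 2.63e-08). At such identity the counting can split or misplace reads, so the level of a copy and of its original cannot be told apart.

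**Figure D1:**
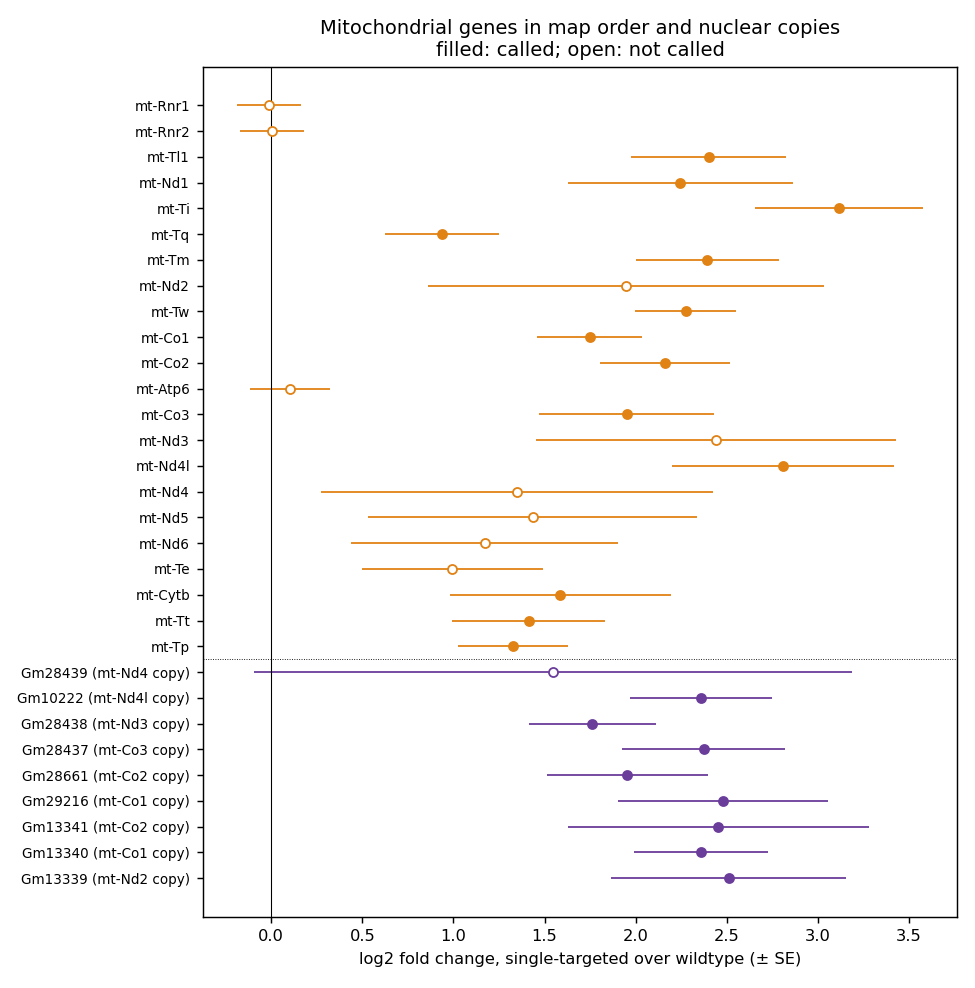
Log2 fold change of single-targeted over wildtype (point, with SE as the bar) for 22 mitochondrially encoded genes in map order. Below the dotted line are 9 nuclear copies, of which 8 were chosen because they were called. Filled points were called. Both rRNAs and mt-Atp6 lie near 0 and all other genes lie to the right, with SEs that differ widely.

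Nuclear genes that serve the same organelle gave no call, where 2.96% of all genes tested were called. Of 27 genes for mitochondrial DNA replication, transcription and RNA processing, 0 were called in the authors' deposited table, with a median of 0.01. Polg2, the accessory subunit of the mitochondrial DNA polymerase, had the most negative value at -0.33 ± 0.24 (adjusted p = 0.226), and Pnpt1, a mitochondrial RNA nuclease, the highest at 0.23 ± 0.22 (adjusted p = 0.417) in the authors' deposited table. None of 80 nuclear-encoded respiratory chain subunits with an adjusted p (median -0.02) and none of 77 mitochondrial ribosomal protein genes (median 0.00) was called in the authors' deposited table. Of the 2 subunits nearest to a call, both on chromosome 8, Ndufa13 stood at -0.55 ± 0.29 (adjusted p = 0.0804) and Cox4i1 at -0.43 ± 0.22 (adjusted p = 0.101) in the authors' deposited table.

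Histone genes of the replication-dependent kind, transcribed in S phase from clusters and ending in a stem-loop in place of a poly(A) tail, fell in part. Of 57 with an adjusted p, 12 fell and 0 rose in the authors' deposited table, with a median log2 fold change of -0.29, and 3 of 59 had a value above 0. The rebuilt means showed a wider gap, with a median log2 ratio of -0.82 over 58 genes, against 0.02 over all genes, and 55 of the 58 ratios were below 0. By family, the rebuilt medians were -1.10 for the 5 linker histone H1 genes, -0.90 for H2A, -0.86 for H2B, -0.45 for H3 and -0.81 for H4.

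The called members came from all 5 families. Hist1h1a went from rebuilt means of 2253 to 990.3, with -1.02 ± 0.33 in the authors' deposited table (adjusted p = 0.00663), and Hist1h1c from 1508 to 704, with -0.95 ± 0.30 in the authors' deposited table (adjusted p = 0.00461). Hist1h1b and Hist1h1e were not called, at -0.08 ± 0.20 and -0.08 ± 0.20 in the authors' deposited table, although their rebuilt means were 1261 against 599.6 and 419 against 177. Among core histones, Hist1h2be stood at -1.10 ± 0.31 (adjusted p = 0.00194), Hist1h2bh at -1.14 ± 0.31 (adjusted p = 0.00114) and Hist1h4c at -0.98 ± 0.28 (adjusted p = 0.00252) in the authors' deposited table. Outside the large cluster on chromosome 13, Hist3h2a on chromosome 11, Hist4h4 on chromosome 6 (-1.11 ± 0.35) and Hist2h3c2 on chromosome 3 (-0.78 ± 0.33) also fell in the authors' deposited table. Many histone genes of the same family are close copies of each other, so reads may be split between them, and a member's own value is uncertain.

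Genes that accompany histone transcription gave few calls, where 2.96% of all genes tested were called. Of 11 replication-independent variants, H2afy2, a macroH2A, fell at -0.76 ± 0.31 (adjusted p = 0.0273) in the authors' deposited table, while H2afy, the other macroH2A, stood at -0.48 ± 0.34 (adjusted p = 0.135). None of 10 factors of histone mRNA processing was called in the authors' deposited table, with Slbp, which binds the stem-loop, at -0.09 ± 0.16. Of 35 DNA replication genes 1 fell, Mcm5 of the replicative helicase at -0.61 ± 0.20 (adjusted p = 0.00867) in the authors' deposited table. Mcm5 lies on chromosome 8. The list's median was -0.13, and Mcm2 of the same helicase stood at -0.45 ± 0.25 (adjusted p = 0.11) in the authors' deposited table. Of 28 cell cycle genes 1 fell, E2f1, a transcription factor of S-phase genes, at -0.61 ± 0.27 (adjusted p = 0.044) in the authors' deposited table, a call that is lost when chromosome 8 is left out of the adjustment (adjusted p = 0.0542 over every other deposited p and 0.0506 over genes with a deposited adjusted p). The share of cells in S phase was not measured here, and in bulk RNA fewer cells making a transcript and less of it per cell cannot be told apart.

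**Figure D2:**
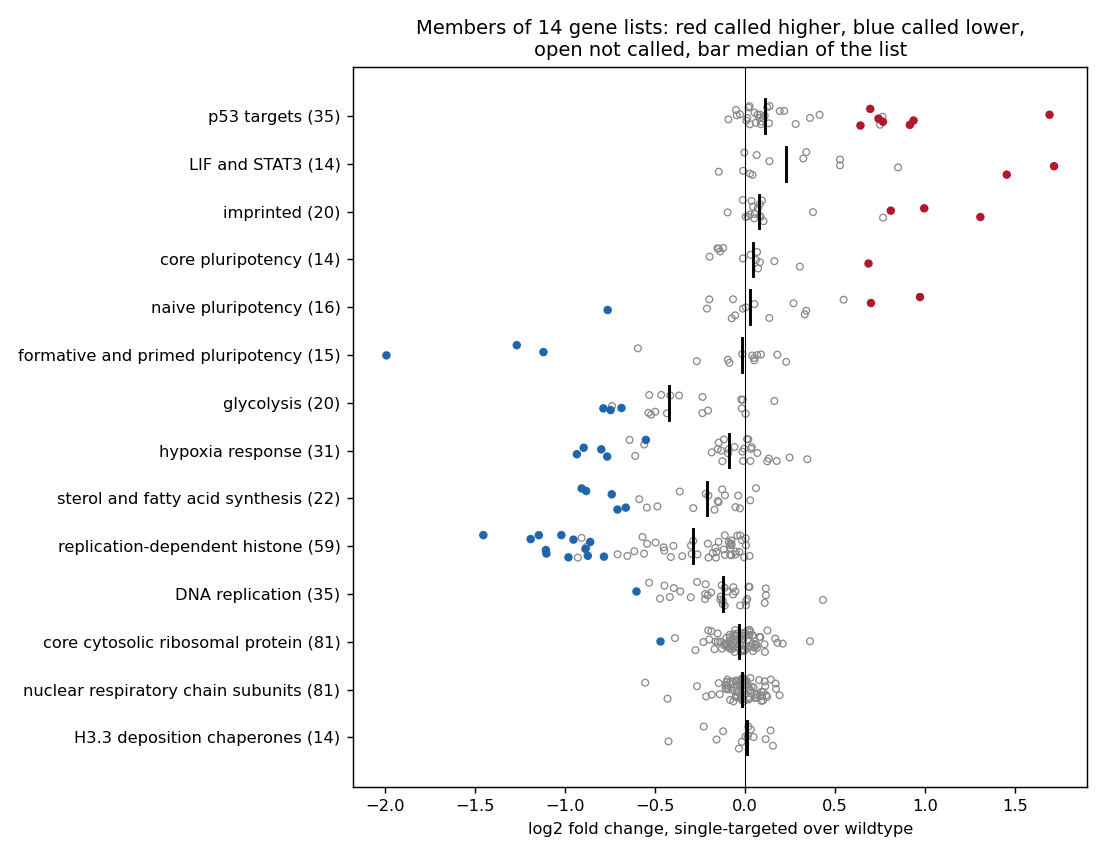
Log2 fold change (single-targeted over wildtype) of each member of 14 gene lists, with the number of members in the table in parentheses and the list's median as a black bar; red members were called higher and blue lower. The replication-dependent histone, glycolysis and sterol lists lie mostly left of 0, and 31 of 35 p53 targets lie right of it.

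Targets of p53, the transcription factor that answers DNA damage and other stress, rose where they passed the test. Of 35 in the authors' deposited table, 7 rose and 0 fell, with a median of 0.11 and 31 values above 0. The 7 cover several branches of the response. Plk2 is given above. Trp53inp1, which promotes p53-dependent arrest and death, stood at 0.93 ± 0.22 (adjusted p = 3.02e-04) in the authors' deposited table, on rebuilt means of 832 and 1701. Polk, a translesion DNA polymerase, rose by 0.91 ± 0.25 and Mdm2, the ubiquitin ligase that degrades p53, by 0.64 ± 0.18 in the authors' deposited table. Ccng1 (0.74 ± 0.24), Btg2 (0.76 ± 0.28) and Eda2r (0.69 ± 0.24), a cyclin, an antiproliferative factor and a death receptor, completed the 7 in the authors' deposited table. Mdm4, the partner of Mdm2 in restraining p53, was outside the list and is named after its value was seen; it stood at 0.81 ± 0.21 in the authors' deposited table. Cdkn1a, the cell cycle inhibitor that is the best known target, was not called at 0.09 ± 0.16 (adjusted p = 0.777), and Bax, which opens mitochondria in apoptosis, stood at 0.01 ± 0.13 in the authors' deposited table.

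LIF, the cytokine that keeps mouse embryonic stem cells undifferentiated, acts through STAT3. Of 14 LIF and STAT3 genes in the authors' deposited table, 2 rose and 0 fell, with a median of 0.23. Bcl3, a nuclear I-kappa-B protein that STAT3 induces, had rebuilt means of 37.5 and 142, and the authors' deposited table gave 1.71 ± 0.38 (adjusted p = 1.21e-04). Socs3, the feedback inhibitor of the LIF receptor, went from 49.6 to 155, with 1.45 ± 0.33 in the authors' deposited table (adjusted p = 1.81e-04). Stat3 itself stood at 0.53 ± 0.23 (adjusted p = 0.0559) and Cish, another feedback inhibitor, at 0.85 ± 0.47 (adjusted p = 0.0743) in the authors' deposited table. Downstream of ERK, the kinase that FGF activates, the direction was mixed: Etv4, a transcription factor, rose by 1.23 ± 0.35 and the phosphatase Dusp4 on chromosome 8 fell by 1.05 ± 0.40 on the log2 scale in the authors' deposited table, of 14 tested. Of the immediate early list, Btg2 alone was called of 13, and the stress factor Atf3 stood at 1.34 ± 0.66 (adjusted p = 0.0502) in the authors' deposited table.

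Stress programmes other than that of p53 showed few calls, where 2.96% of all genes tested were called. Of 25 genes of the integrated stress response, Cebpb, a transcription factor, rose at 1.61 ± 0.43 (adjusted p = 0.00114) in the authors' deposited table. Of the 25 values 22 were above 0 with a median of 0.10. None of 18 genes of the unfolded protein response (median -0.03) and none of 12 interferon response genes (median -0.05) was called in the authors' deposited table. Of 10 heat shock genes 1 fell, Dnajb1, a co-chaperone on chromosome 8, at -0.87 ± 0.24 in the authors' deposited table. Of 81 cytosolic ribosomal protein genes 1 fell in the authors' deposited table, with a median of -0.03 over all 81.

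Genes of glycolysis, which supplies much of the energy of embryonic stem cells, had values below 0 at most steps. Of 20 genes in the authors' deposited table, 3 fell and 0 rose, 18 had a value below 0, and the median was -0.42 against 0.00 for all genes. The 3 are Pfkl and Pfkm, liver and muscle forms of phosphofructokinase, and Tpi1, triosephosphate isomerase. Pfkl went from rebuilt means of 1089.8 to 565, with -0.79 ± 0.30 in the authors' deposited table (adjusted p = 0.0187). Tpi1 stood at -0.75 ± 0.31 (adjusted p = 0.0297) and Pfkm at -0.69 ± 0.29 (adjusted p = 0.0344) in the authors' deposited table. Pgk1, the phosphoglycerate kinase, was not called at -0.50 ± 0.21 (adjusted p = 0.051) in the authors' deposited table. The more abundant enzymes had values below 0 without a call, with Eno1 at -0.43 ± 0.23, Ldha at -0.42 ± 0.23 and Pkm at -0.37 ± 0.23 in the authors' deposited table. The 2 values above 0 were those of Hk2, a hexokinase, at 0.16 ± 0.16, and of Eno2, an enolase, at 0.00 ± 0.15 in the authors' deposited table.

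Many of these enzymes are also induced in low oxygen by HIF, which binds a short DNA core in their promoters. Of 31 hypoxia response genes in the authors' deposited table, 5 fell and 0 rose, with a median of -0.09, and none of the 5 lies on chromosome 8. Ndrg1, a stress-responsive growth regulator, stood at -0.90 ± 0.29 (adjusted p = 0.0072) and Bnip3, a mitophagy receptor, at -0.93 ± 0.35 (adjusted p = 0.0163) in the authors' deposited table. P4ha1, a collagen prolyl hydroxylase, stood at -0.77 ± 0.28 (adjusted p = 0.0163), Pdk1, the kinase that switches off pyruvate dehydrogenase, at -0.55 ± 0.19 (adjusted p = 0.0163), and Egln3, a prolyl hydroxylase that marks HIF for decay, at -0.80 ± 0.35 (adjusted p = 0.0378) in the authors' deposited table. Only the form ACGTG of the HIF core (CACGT on the other strand) was sought, and the form GCGTG was not. The search covered the 250 bases before the start of each RefSeq transcript (GRCm38.p6). The ACGTG form occurred in 16.6% of 32851 promoters, in 45.7% of 35 hypoxia gene promoters and in 37.9% of 29 glycolysis gene promoters. Of 8 genes of either list that fell, 7 matched the promoter table, with 11 start sites, of which 5 (45.5%) held it. Over all members of both lists, fallen or not, it occurred in 42.2% of 64 promoters. Of the 5 start sites, 2 were those of Pfkm, and Pdk1, Pfkl and Tpi1 fell without holding the ACGTG form. The promoters of 3 that fell and hold this form are shown because they carry it at very different distances. Matches to this form alone are in capitals. In Bnip3 (chr7:138909507-138909756, minus strand) both orientations overlap in 1 palindrome starting 108 bases before the transcript start. In P4ha1 (chr10:59323046-59323295, plus strand) the form starts 16 bases before the transcript start, and in Egln3 (chr12:54203875-54204124, minus strand) 229 bases before it.
Bnip3: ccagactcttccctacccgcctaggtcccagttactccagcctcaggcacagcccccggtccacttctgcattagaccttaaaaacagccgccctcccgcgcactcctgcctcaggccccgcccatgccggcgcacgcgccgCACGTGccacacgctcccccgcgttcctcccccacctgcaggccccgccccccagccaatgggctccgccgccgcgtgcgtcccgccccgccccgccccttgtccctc
P4ha1: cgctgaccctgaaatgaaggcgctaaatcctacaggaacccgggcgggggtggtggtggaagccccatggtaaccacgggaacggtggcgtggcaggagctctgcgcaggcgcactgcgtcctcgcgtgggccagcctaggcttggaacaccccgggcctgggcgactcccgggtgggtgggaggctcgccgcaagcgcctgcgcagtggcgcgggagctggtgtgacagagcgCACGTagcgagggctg
Egln3: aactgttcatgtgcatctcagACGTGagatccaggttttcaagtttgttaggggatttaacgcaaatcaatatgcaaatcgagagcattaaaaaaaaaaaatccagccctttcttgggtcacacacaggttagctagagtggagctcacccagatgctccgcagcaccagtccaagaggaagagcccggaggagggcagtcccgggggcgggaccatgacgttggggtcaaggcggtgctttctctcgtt
A match is a description of these letters and shows no binding.

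Genes of lipid synthesis fell at several steps. Of 22 genes of sterol and fatty acid synthesis in the authors' deposited table, 5 fell and 0 rose, 20 had a value below 0, the median was -0.21, and none of the list lies on chromosome 8. Scd1 and Scd2, the desaturases that make oleate, are neighbours on chromosome 19. Scd2 went from rebuilt means of 4238 to 2411, with -0.74 ± 0.18 in the authors' deposited table (adjusted p = 5.24e-04), and Scd1 from 673 to 337, with -0.91 ± 0.22 in the authors' deposited table (adjusted p = 2.94e-04). Insig1, which retains SREBP in the endoplasmic reticulum, stood at -0.71 ± 0.21 (adjusted p = 0.00384) and Fdft1, squalene synthase, at -0.66 ± 0.29 (adjusted p = 0.0397) in the authors' deposited table. Fdft1 lies on chromosome 14, whose median fold change was also below 0, and without chromosomes 8, 14 and Y the list has 4 falls. Fads1 and Fads2, desaturases of polyunsaturated fatty acids, were not in the list and are named after their values were seen; they stood at -0.69 ± 0.23 and -0.98 ± 0.23 in the authors' deposited table. Of 15 genes of acetyl-CoA supply, Acss1 and Pdk1 fell, and Pdhb, a subunit of pyruvate dehydrogenase, stood at 0.33 ± 0.21 (adjusted p = 0.201) in the authors' deposited table.

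Genes of the core pluripotency network were read to check the label of the cell line. All 14 of the list were in the authors' deposited table, with mean counts of 337 to 6109, and 1 was called: Nanog rose by 0.68 ± 0.20 (adjusted p = 0.00468), on rebuilt means of 1822 and 3149. Pou5f1 (Oct4) stood at -0.15 ± 0.17 and Sox2 at -0.12 ± 0.18 in the authors' deposited table. Of 16 naive pluripotency genes, Klf5, a transcription factor, rose by 0.97 ± 0.21 (adjusted p = 8.92e-05) and Tet2, which oxidises methylcytosine, by 0.70 ± 0.27 (adjusted p = 0.0248), while Tcl1, a coactivator of AKT, fell by 0.76 ± 0.27 on the log2 scale in the authors' deposited table. Tet1 also rose, by 0.58 ± 0.20 (adjusted p = 0.0152) in the authors' deposited table; of 11 DNA methylation genes, 9 gave no call.

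Genes of the formative and primed states, which follow naive pluripotency, gave 3 falls and 0 rises among 14 tested in the authors' deposited table. Otx2, a transcription factor of the formative state, went from 215 to 80.7, with -1.27 ± 0.34 in the authors' deposited table (adjusted p = 0.0011). Zic5 went from 424 to 180.0, with -1.12 ± 0.27 in the authors' deposited table (adjusted p = 3.07e-04). Zic2 and Zic5 are neighbours on chromosome 14 with 2610035F20Rik between them, which stood at -2.09 ± 0.70 in the authors' deposited table. Otx2 lies on the same chromosome, whose median fold change was also below 0, and without chromosomes 8, 14 and Y the list has 0 falls. Among Wnt, BMP and Nodal targets, Lefty2, a Nodal antagonist, stood at -1.35 ± 0.33 (adjusted p = 3.85e-04) and Notum, a Wnt deacylase, at -1.18 ± 0.40 (adjusted p = 0.00784), both lower, of 18 in the authors' deposited table. Lefty1 had rebuilt means of 891 and 193 but a shrunken value of -0.10 ± 0.22 (adjusted p = 0.0845) in the authors' deposited table.

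Of 5 lists of markers of other cell types, 2 gave calls. Of 10 mesoderm and primitive streak markers 2 were in the authors' deposited table, of 10 trophectoderm markers 5, of 12 fibroblast and feeder markers 3, and none of these was called. The levels were not all low: Fn1 (fibronectin) of the fibroblast list had a mean count of 8429 and Tfap2c of the trophectoderm list 299.7 in the authors' deposited table. The collagen genes Col1a1, Col1a2 and Col3a1 of the fibroblast list were not in that table. Of 9 neural markers in the table, Neurod1 rose by 1.39 ± 0.51 from a wildtype mean of 20.0 in the authors' deposited table. Of 8 endoderm markers, the laminin chains Lamb1 (0.85 ± 0.24) and Lama1 (0.68 ± 0.25) rose in the authors' deposited table, while Pdgfra, of the same lineage, stood at 0.03 ± 0.18. Laminins are made by naive cells too, so these 2 genes alone mark no lineage. None of 13 markers of 2-cell-like cells was in the table.

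Genes that handle H3.3 and other chromatin were nearly all without a call, where 2.96% of all genes tested were called. Whether these lists differ from that share was not tested. None of 14 H3.3 and H3 chaperone genes was called in the authors' deposited table: Atrx, the remodeller that works with Daxx, stood at 0.15 ± 0.18, and Ubn1, a subunit of the HIRA complex, was lowest at -0.43 ± 0.23 (adjusted p = 0.111). None of 17 genes of H3K9 methylation and silencing was called, with Cbx5 (HP1 alpha) nearest at 0.44 ± 0.20 (adjusted p = 0.0733) in the authors' deposited table. None of 21 histone acetylation genes, 25 nucleosome remodelling genes or 38 genes of RNA polymerase II and its elongation factors was called in the authors' deposited table, with medians of -0.03, -0.06 and 0.02. Of 24 Polycomb genes 1 rose, Aebp2, a subunit of one form of PRC2, at 0.84 ± 0.19 (adjusted p = 1.51e-04) in the authors' deposited table. None of 56 members of the small nucleolar RNA list with an adjusted p was called in the authors' deposited table. The list is not the whole class: of 160 genes annotated as small nucleolar RNAs, 1 was called lower and 0 higher.

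Germline, imprinted and ciliary genes gave scattered calls. Among 24 germline genes with an adjusted p, Tex19.1 and Mael, a piRNA pathway protein (1.77 ± 0.70), rose and Kctd19 fell in the authors' deposited table. The table held 25, of which 21 had values above 0, and the rebuilt ratio was above 0 for 21 of 23, with a median of 0.87 on a median mean count of 62.1. Of 20 imprinted genes 3 rose and 0 fell in the authors' deposited table. These are Peg10, a paternally expressed gene derived from a retrotransposon (1.31 ± 0.29), Grb10, an adaptor that curbs growth (0.99 ± 0.27), and Zrsr1, a paternally expressed splicing factor (0.81 ± 0.24), and 18 of the 20 values were above 0. Axonemal dyneins went both ways, with Dnah17 at 2.29 ± 0.78 and Dnah8 at -0.95 ± 0.24 in the authors' deposited table. Dnah17 is a neighbour of Socs3, with Pgs1 between them (0.60 ± 0.22), and all 3 rose in the authors' deposited table. Pgs1 and Dnah17 overlap, so reads of the pair may be shared, and Dnah17 had a low mean count of 24.1. Of 14 tested genes of a list for neuronal adhesion and synapses, 2 rose and 2 fell in the authors' deposited table: Shank1, a scaffold protein, stood at 0.86 ± 0.28, and Mdga1, Ap3b2 and Bcl11a are given above. Of the 3 Y-linked genes of the list in the table, Eif2s3y stood at 0.68 ± 0.25 (adjusted p = 0.0183), Ddx3y at 0.43 ± 0.28 and Uty at 0.00 ± 0.17 in the authors' deposited table.

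Among short RNA genes, the only called microRNA loci were neighbours in the miR-290 to miR-295 cluster on chromosome 7, the main microRNA cluster of mouse embryonic stem cells, which speeds the passage from G1 to S phase. The table held 108 annotated microRNA genes, of which 2 were called, both lower. Over all genes tested 1.47% were lower, and whether 2 of 108 exceeds that share was not tested. Mir291a went from rebuilt means of 853 to 440.4, with -0.79 ± 0.30 in the authors' deposited table (adjusted p = 0.0196), and Mir292 from 879.7 to 511, with -0.63 ± 0.27 in the authors' deposited table (adjusted p = 0.0417). Without chromosome 8 the adjusted p of Mir292 was 0.0514 and 0.0478 over the same sets of genes as for Tex19.1. Mir291b stood at -0.41 ± 0.26 (adjusted p = 0.153), and Mir290a, Mir293, Mir294 and Mir295 lay between -0.11 and 0.03 in the authors' deposited table. These counts come from new primary transcripts over the hairpins, not from mature microRNAs. The mature arms below, from RefSeq (GRCm38.p6), are shown because arms that share a seed (bases 2 to 8, in capitals) lie in hairpins that did and did not pass the test.
mmu-miR-291a-3p: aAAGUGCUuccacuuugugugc
mmu-miR-294-3p: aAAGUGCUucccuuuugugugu
mmu-miR-295-3p: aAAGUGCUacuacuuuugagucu
mmu-miR-291b-3p: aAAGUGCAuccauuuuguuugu
mmu-miR-290a-3p: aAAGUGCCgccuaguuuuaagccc
mmu-miR-292a-5p: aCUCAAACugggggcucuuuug
mmu-miR-293-5p: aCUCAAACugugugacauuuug
The seed AAGUGCU is shared by 3 arms, of which the hairpin of miR-291a fell and those of miR-294 and miR-295 were not called. The seed CUCAAAC is also shared by 3 arms, of miR-290a, miR-292a and miR-293, of which the hairpin of miR-292a fell.

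Chromosome 8 and, less, chromosome 14 had lower median fold changes than 18 other chromosomes. Chromosome 8 held 86 of the 221 lower genes (38.9%), 10.9% of its 787 tested genes were lower, and 3 were higher, in the authors' deposited table. Over its 648 genes at or above a mean count of 50, the median log2 fold change was -0.21, the median rebuilt ratio -0.46, and 88.7% of the fold changes were below 0. All 13 windows of 10 Mb along it had a median below 0, with rebuilt medians from -0.56 to -0.28. Windows were not tested against each other. The median SE of its genes with mean counts of 200 to 2000 was 0.215, against 0.147 to 0.155 on 18 other chromosomes. On those 18, the median fold change lay between -0.01 and 0.03. Chromosome 14 had a median of -0.06, a rebuilt median of -0.23 and 16 lower genes of 493 tested, a larger share than the 0.329 to 2.35% on the 18. In dual-targeted lines the median of chromosome 8 was -0.34 in the authors' deposited table against wildtype and that of chromosome 14 was -0.29. Chromosome copy number was not measured here, and its part in these values was not tested. Without chromosomes 8, 14 and Y, 197 genes were higher and 105 lower. The mitochondrial, p53, sterol and core histone genes named above do not lie on chromosome 8.

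**Figure D3:**
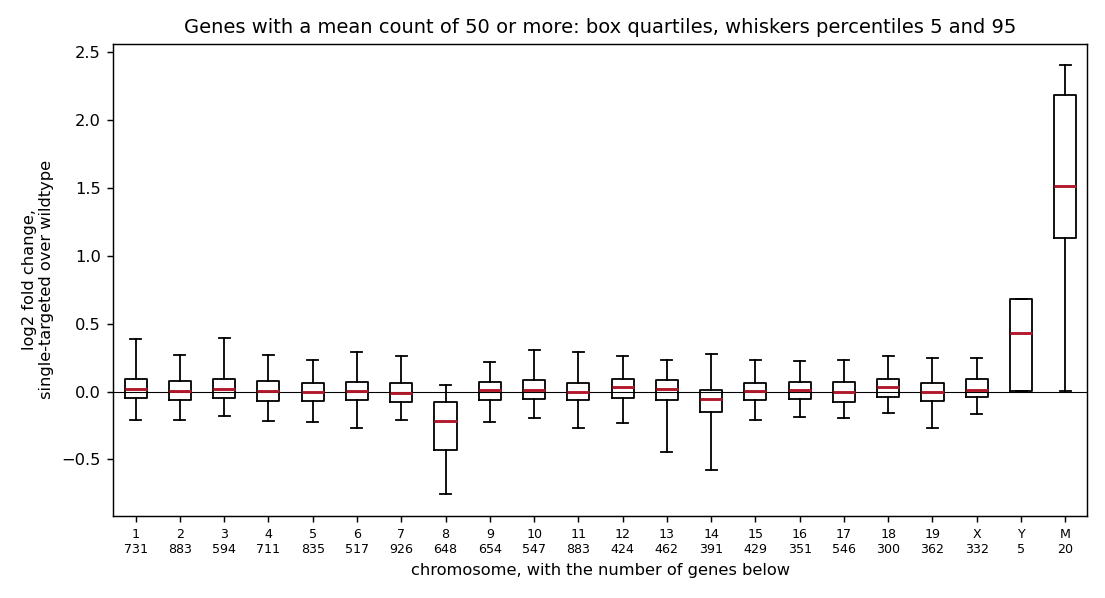
Log2 fold change (single-targeted over wildtype) of genes at or above a mean count of 50 by chromosome, as boxes from the lower to the upper quartile with the median in red and whiskers from percentile 5 to percentile 95. The box of chromosome 8 lies below 0, that of chromosome 14 slightly below, and that of the mitochondrial genome (M, 20 genes) above 1.

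The dual-targeted lines were used to ask whether the values of the single-targeted lines differ from those with 3 mutant alleles. The comparisons of either group with wildtype share the 3 wildtype libraries, and the direct comparison of the groups shares the single-targeted libraries with the values above. In the authors' deposited table of dual- against single-targeted lines, 928 of 13141 genes with an adjusted p were called (7.06%), 574 higher in the dual-targeted lines (4.37%) and 354 lower (2.69%). Of the 12 largest rises 1 was called different, and of the 12 largest falls 3, of 9 with an adjusted p there. Miat stood at 1.65 ± 0.34 in single- and 3.18 ± 0.26 in dual-targeted lines against wildtype, and its difference was 1.32 ± 0.31 (adjusted p = 3.71e-04) in the authors' deposited table. Lrrc31 stood at -1.74 ± 0.24 and -3.93 ± 0.26, with a difference of -2.04 ± 0.34 (adjusted p = 2.47e-07) in the authors' deposited table. Acss1 stood at -2.22 ± 0.25 and -3.58 ± 0.27, with a difference of -1.04 ± 0.46 (adjusted p = 0.0276) in the authors' deposited table. These 3 were further from wildtype in the dual-targeted lines. Bcl11a was nearer to wildtype there, at -1.55 ± 0.30 and -0.44 ± 0.22, with a difference of 0.90 ± 0.38 (adjusted p = 0.023) in the authors' deposited table. Plk2, at 1.69 ± 0.27 and 2.17 ± 0.22, was not called different (0.34 ± 0.20, adjusted p = 0.147), nor was Mdga1, at 2.12 ± 0.40 and 2.36 ± 0.31 (0.04 ± 0.22, adjusted p = 0.85), in the authors' deposited table. Socs3 was called different, at 1.45 ± 0.33 and 3.32 ± 0.28 (1.65 ± 0.34, adjusted p = 5.94e-05) in the authors' deposited table.

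Within the groups of genes described above, the direct comparison separated subsets. All 5 linker histone genes were higher in dual- than in single-targeted lines, from 0.61 for Hist1h1c to 1.47 for Hist1h1e in the authors' deposited table, while 0 of 43 H2A, H2B, H3 and H4 genes with an adjusted p were called. Of 19 mitochondrially encoded genes 5 were lower in dual-targeted lines, all mRNAs (mt-Co2, mt-Atp6, mt-Co3, mt-Nd4l and mt-Nd5), and 1 tRNA, mt-Tp, was higher, in the authors' deposited table. The falls divide by level: all 4 tested mRNAs of low mean count (26.8 to 90.5) were lower, but only 1 of 7 abundant mRNAs, mt-Nd5. Of the low ones, mt-Co2, mt-Co3 and mt-Nd4l have nuclear copies that align at 100% identity, so their reads may be shared. mt-Co2 stood at 2.16 ± 0.36 in single- and 0.57 ± 0.41 in dual-targeted lines, with a difference of -1.12 ± 0.45 (adjusted p = 0.0198) in the authors' deposited table. Of 19 glycolysis genes 13 were higher in dual-targeted lines and 1 lower, with Tpi1 at -0.75 ± 0.31 and 0.26 ± 0.22 (1.08 ± 0.37, adjusted p = 0.00914) in the authors' deposited table. Of 35 p53 targets 1, Aen, was called higher in dual- than in single-targeted lines, and of 22 sterol and fatty acid genes 1, Elovl7, lower, in the authors' deposited table. Mir291a and Mir292 were higher in dual-targeted lines, by 0.90 ± 0.29 and 0.76 ± 0.24 in the authors' deposited table.

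Several groups with hardly a call against wildtype did differ between the mutant groups. Of 80 cytosolic ribosomal protein genes 40 were higher in dual- than in single-targeted lines and 0 lower, with a median difference of 0.51 in the authors' deposited table. Of 18 genes of the unfolded protein response 10 were higher (median 0.60), and of 10 heat shock genes 7 (median 0.56), in the authors' deposited table. Hsph1, a chaperone of that list, stood at 0.21 ± 0.18 in single- and 1.30 ± 0.17 in dual-targeted lines, with a difference of 0.92 ± 0.20 (adjusted p = 1.47e-04) in the authors' deposited table. Of 14 core pluripotency genes 5 were higher, with Pou5f1 at a difference of 1.02 ± 0.25 (adjusted p = 7.25e-04) in the authors' deposited table. Of 14 formative and primed genes Foxd3 and Lef1 were higher, and Lef1, a Wnt effector, stood at -0.59 ± 0.36 and 1.80 ± 0.21, with a difference of 2.64 ± 0.30 (adjusted p = 3.00e-16) in the authors' deposited table. Of 25 integrated stress response genes 4 were lower, among them Cebpb, at 1.61 ± 0.43 and 0.19 ± 0.30 (-1.12 ± 0.51, adjusted p = 0.0287) in the authors' deposited table. Chromosome 8, by contrast, had a median difference of 0.00.

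**Figure D4:**
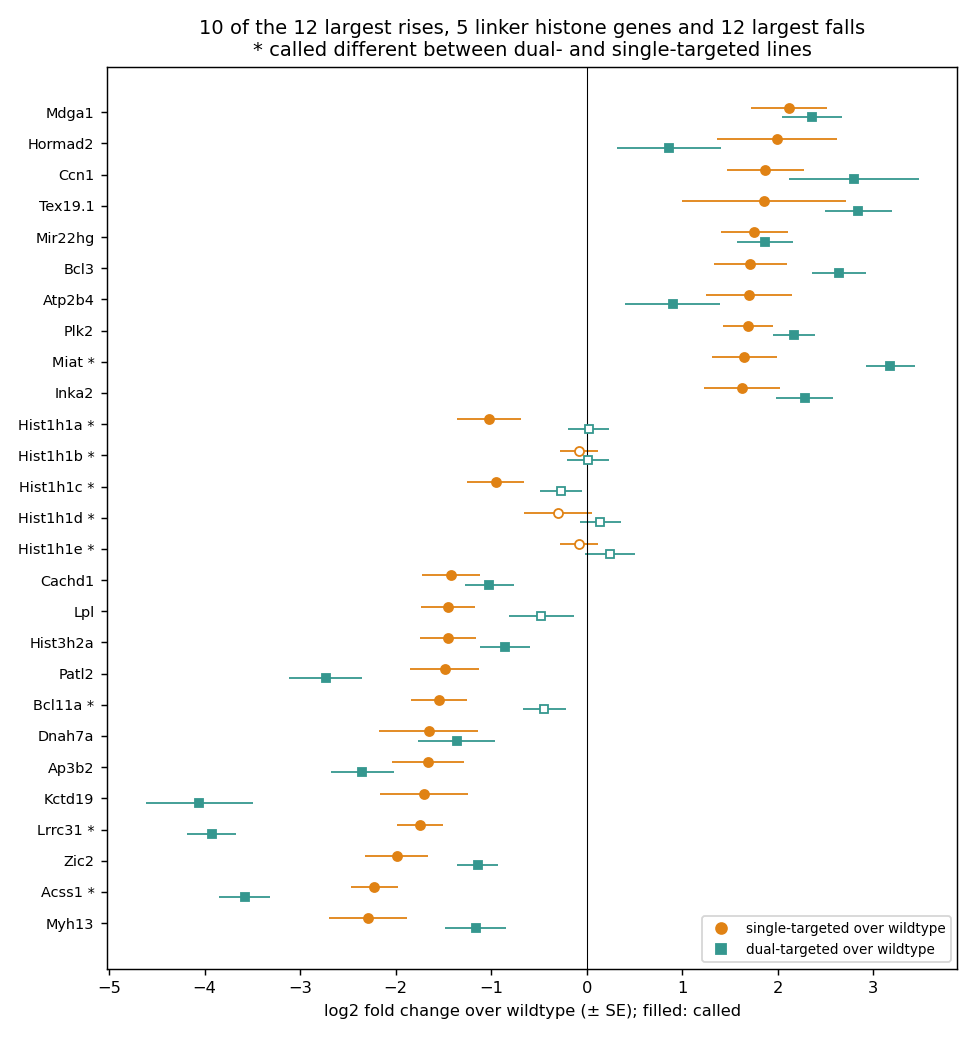
Log2 fold change over wildtype with SE for 10 of the 12 largest rises, 5 linker histone genes and 12 largest named falls of the single-targeted lines (orange circles), beside the dual-targeted lines (green squares); filled symbols were called and a star marks a called difference between the mutant groups. Miat, Acss1 and Lrrc31 lie further from 0 in dual-targeted lines, Bcl11a nearer, and no linker histone gene was called in dual-targeted lines.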

How the data were processed

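The series measured labelled RNA by TT-seq in 8 libraries, and the values used here are 3 of 4 deposited tables of the authors' own comparisons. Reads were processed with STAR, SAMtools, featureCounts, DESeq2 and deepTools with the builds mm10 and GRCm38.p6 named, according to the submitters' processing notes, and versions and the use of strand are not given in the sources used here. Each table holds, per the file headers, a mean normalized count over the libraries compared (a signal that the authors averaged, with no value per library), a log2 fold change that the authors deposited with its standard error, and the p-value and adjusted p-value that the authors made. For 100% of called genes the fold change over its error was smaller than the p implies, so the fold changes are read as shrunken. An adjusted p was empty for 1225 genes, with mean counts of at most 15.6, and was kept empty.

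No count test was possible without counts per library. Group means were rebuilt by subtraction from the mean counts of the tables of wildtype with single-targeted, wildtype with dual-targeted and single- with dual-targeted lines, after scaling the latter tables by 1.02 and 1.09 to bring the median ratio of every group to wildtype to 1. Over 387 called genes at or above a mean count of 50, 387 ratios had the sign of the fold change. On simulated means for 15610 genes of this comparison, 99.5% of 200 changed genes came out with the right sign. These genes were changed by at least 1 on the log2 scale, at mean counts of at least 50, with the same true level in all libraries of a group. The sign was not checked for smaller changes, lower counts or lines of unlike genotype. Calls used the authors' adjusted p under 0.05.

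Named were H3f3a, H3f3b, the 12 largest rises and falls (called, mean count at least 50, neither mitochondrially encoded nor unnamed), the 6 nuclear genes of smallest p, up to 4 members of each of 45 gene lists by adjusted p, and all mitochondrially encoded genes; others are described as members of their list. The comparison and the lists were chosen with earlier results of these data known. Positions are from GENCODE M21 (GRCm38), which held 98.4% of symbols. The software was blastn 2.17.0, matplotlib 3.10.9, scipy 1.17.1, pandas 2.3.3, numpy 2.4.6 and Python 3.11.15. The alternatives tried were other thresholds, adjustment over other sets of genes, and leaving out chromosomes or mitochondrial genes. The wildtype libraries are biological replicates per the labels, and each mutant library is a different line. A few of the genes this rule selects are not reported here.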

Additional observations from a re-analysis of the deposited data

Results flagged for a closer look

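The results below differ between dual- and single-targeted lines by the direct comparison in the authors' deposited table (positive is higher in dual-targeted lines), with adjusted p-values under 0.05; 7.06% of all genes tested there passed it. The comparison shares the single-targeted libraries with the values above. Among the largest changes, the differences were -1.04 for Acss1, 0.90 for Bcl11a, -2.04 for Lrrc31 and 1.32 for Miat. The linker histone genes stood at 1.13 for Hist1h1a, 0.89 for Hist1h1b, 0.61 for Hist1h1c, 0.71 for Hist1h1d and 1.47 for Hist1h1e. Mitochondrially encoded genes, with one nuclear copy, stood at -1.52 for mt-Atp6, -1.12 for mt-Co2, -1.32 for mt-Co3, -1.54 for mt-Nd4l, -0.78 for mt-Nd5, 0.54 for mt-Tp and -1.22 for Gm10222.

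Glycolysis genes stood at 0.87 for Pfkl, 0.87 for Pgk1 and 1.08 for Tpi1, and genes of LIF and ERK signalling at 1.65 for Socs3, 0.80 for Cish, 1.89 for Phlda1 and 0.80 for Ier2. Wnt genes stood at 2.64 for Lef1 and 1.15 for Notum. Chaperones of the heat shock and unfolded protein response lists stood at 0.47 for Hsp90aa1, 0.77 for Hspe1, 0.92 for Hsph1, 0.96 for Calr and 0.66 for Hyou1, and genes of the integrated stress response at -1.12 for Cebpb and -0.72 for Trib3. Chromatin and replication genes stood at 0.51 for Cbx3, 0.97 for Hirip3, 0.58 for Smarcd1 and 0.66 for Mcm2. Short RNA genes stood at 0.90 for Mir291a, 0.65 for Mir291b, 0.76 for Mir292 and 1.35 for Snora43. Of the other lists, 0.64 for Cox4i1, 0.94 for Rps15 and 1.15 for Vim were named. The adjusted p was smallest for Lef1 (3.00e-16) and Lrrc31 (2.47e-07).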

How the results depend on the processing

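Calls were 224 higher and 221 lower in the authors' deposited table. With a threshold of 0.01 on the adjusted p they were 129 and 113, under 0.1 they were 337 and 358, and with a log2 fold change of at least 1 in size 130 and 71. Without chromosome 8, an alternative chosen after seeing the data, 121 were lower (128 over genes with a deposited adjusted p), and without chromosomes 8, 14 and Y 105 were lower. All other counts over all genes stayed within 1.5 times: those with every deposited p adjusted anew, with genes at or above a mean count of 50, without mitochondrially encoded genes, also without their nuclear copies (added after seeing the data), with the median set to 0, and with the direction from rebuilt means. Of the named genes, 201 were adjusted anew over every deposited p, 197 had rebuilt means and 184 reached a mean count of 50, and none of the called ones changed direction or lost its call there or with the median set to 0. Hadh (adjusted p = 0.0452), Mov10l1 (0.0462), Pgk1 (0.0442), Stat3 (0.0483) and mt-Te (0.0493) became called when adjusted over the genes at or above a mean count of 50, and mt-Nd3 (0.0303) over every deposited p. Of 34 counts of calls in gene lists, 22 moved by over 1.5 times with a log2 fold change of at least 1, 15 at 0.01, 8 at 0.1, 10 without chromosomes 8, 14 and Y, and 7 without chromosome 8. At 0.01, glycolysis went from 3 lower genes to 0 and the hypoxia response from 5 to 1. Without chromosome 8 the 7 were lower cell cycle, DNA replication, heat shock, ribosomal protein, ERK output and germline genes, each from 1 to 0, and higher germline genes, from 2 to 1 (2 over genes with a deposited adjusted p). Leaving out each library and another normalization were not run, since they need values per library. No paired analysis was possible because the labels give the single-targeted lines no replicate numbers and the tables hold no values per library. With 2 libraries in the single-targeted group and unknown depth, a gene that was not called is not shown to be unchanged.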

Other observations

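The genes below were called and were picked after their values were seen. They stand for no gene group, since no group was counted. Several act in lysosomes or autophagy. Hexa, a subunit of a lysosomal hexosaminidase, stood at -0.72 ± 0.30 (adjusted p = 0.0294) in the authors' deposited table. Npc2, which carries cholesterol out of lysosomes, stood at -0.72 ± 0.22 in the authors' deposited table. Sqstm1 (p62), an autophagy receptor, stood at -0.71 ± 0.24 in the authors' deposited table, and its rebuilt means were 900.4 and 506. These 3 lie on chromosomes 9, 11 and 12. Map1lc3b (LC3B), Mcoln1, a lysosomal calcium channel, and Atp6v1b2, a subunit of the proton pump, also fell in the authors' deposited table, at -0.86 ± 0.22, -0.51 ± 0.21 and -0.69 ± 0.20, and all 3 lie on chromosome 8, where most genes were lower.

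Other called genes, picked in the same way, act in adhesion or bind actin, and their directions differed. Itga3, an integrin that binds laminin, stood at 1.12 ± 0.28 (adjusted p = 5.88e-04) in the authors' deposited table, beside the laminin chains Lamb1 and Lama1. Flnc, a filamin, stood at 1.20 ± 0.39, Cnn2, a calponin, at 1.02 ± 0.46, and Pdlim7, a protein of actin stress fibres, at 0.84 ± 0.30 in the authors' deposited table. Lpp, of focal adhesions, stood at 0.87 ± 0.23, and the actin-binding proteins Dstn and Tmsb4x at 0.83 ± 0.23 and 0.80 ± 0.34 in the authors' deposited table. Lima1, which also binds actin, went the other way, at -1.04 ± 0.33 (adjusted p = 0.00487) in the authors' deposited table. Its rebuilt means were 2059 and 893. Myadm, a membrane protein, stood at 0.59 ± 0.20 in the authors' deposited table.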
